A study of Homo sapiens with 9 samples.

Results

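Oxidative phosphorylation is the last stage of respiration, in which electrons from NADH and succinate pass along complexes I to IV of the inner mitochondrial membrane to oxygen, and the proton gradient that builds up drives complex V, the ATP synthase. The subunits are encoded mostly in the nucleus, with a small set in mitochondrial DNA, and each complex needs its subunits in fixed proportion. Colorectal cancer cells keep this machinery beside active glycolysis. Here the genes of complexes I to V were read in DLD1, a near-diploid human colorectal cancer line, after depletion of the nuclear lamins, the intermediate filament proteins that line the inner nuclear membrane. They were chosen by name alone: probes whose gene name began with NDUFA, NDUFB, NDUFC, NDUFS or NDUFV (complex I), was SDHA, SDHB, SDHC or SDHD (complex II), began with UQCR (complex III), with COX followed by a digit from 4 to 8 (complex IV) or with ATP5 (complex V). The rule found 86 of 31033 gene names, on 132 of 50238 probes. They divided into 41 genes of complex I, 4 of complex II, 7 of complex III, 18 of complex IV and 16 of complex V.

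Total RNA from 9 cultures was hybridised to single-colour arrays, 3 for each of 3 groups. The Control cells received no siRNA, the Lamin A/C Kd cells received siRNA against Lamin A/C at 100 nM for 48 h, and the Lamin B2 Kd cells received siRNA against Lamin B2 at 100 nM for 48 h. All came from the single line DLD1, and no array of cells given a non-targeting siRNA was analysed here, so transfection and depletion cannot be told apart. Values are log2 signals above the median spot of the same array, and the array medians lay between 63.0 and 82.6 intensity units. The array of Lamin B2 Kd replicate 3 was on a second slide, while the other 8 shared 1 slide. The targeted genes were lower in the arrays labelled for them, LMNA by a log2 change of -3.83 (limma adjusted p = 0.000241) and LMNB2 by one of -2.32 (limma adjusted p = 0.000576). Of 9 colon epithelial markers on the array, 7 were well above background on all 9 arrays, namely KRT8, KRT18, KRT19, KRT20, CDX2, VIL1 and CDH1. KRT20 lay below the median spot throughout, from -1.84 to -0.38. On its best probe CDX1 was well above background on 7 arrays and CEACAM5 on 1. Of 8 fibroblast markers 2 were well above background on all 9 arrays, PDGFRA and THY1. PDGFRA was so only on its brightest probe, at -0.15 to 0.29, and its other probes were well above background on no array. COL1A1, COL1A2, COL3A1 and LUM were well above background on at most 2 arrays, PDGFRB on 7 and DCN on 8. PDGFRB rose by 1.52 in Lamin A/C Kd (limma adjusted p = 0.0114), to -0.019 on the log2 scale, and the epithelial marker VIL1 fell by 1.06 on depletion of Lamin B2 (limma adjusted p = 0.0349). The log2 of the summed signal of the 8 fibroblast markers ran from 3.69 to 4.004 in the controls, from 3.84 to 3.96 in Lamin A/C Kd and from 3.80 to 4.42 in Lamin B2 Kd, and that of the 9 epithelial markers from 12.7 to 12.8, 12.8 to 12.8 and 12.6 to 13.1, so the groups overlapped in both. Such sums follow the brightest markers, THY1 among the fibroblast ones and KRT18, KRT19 and KRT8 among the epithelial ones. Changes of dimmer markers such as PDGFRB and VIL1 hardly enter them. The part of these markers in the results was not tested. Among blood cell markers, CD3E and CD14 were well above background on all 9 arrays, while PTPRC, HBB and LYZ were well above background on at most 3 arrays.

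A change was called where the limma moderated test gave an adjusted p under 0.05, over all probes tested. A gene with several probes was read from its brightest tested probe. Of the 86 genes, 82 could be tested in every comparison. The 4 others were NDUFA4L2, COX7A1, COX7B2 and COX8C, whose probes were well above background on at most 1 array, all of them tissue isoforms or paralogues. Signals of the tested genes were bright, with a median of 7.95 on the log2 scale in the controls against 2.44 for all genes tested, and 80 of the 82 lay above the median gene. In bulk RNA such as this, fewer cells that express a gene and less RNA per cell cannot be told apart. By name the rule also took in 5 genes that are no subunits: the assembly factors NDUFAF1 and NDUFA12L (now NDUFAF2), the supercomplex factor COX7A2L, the coupling factor ATP5S and COX4NB (now EMC8), a neighbour of COX4I1. NDUFA4 is counted here with complex I by its name, although it is now placed in complex IV. Of the 86 genes, 51 have at least 1 named pseudogene in RefSeq (7 for ATP5J2, 1 for SDHB and none for NDUFB7), and whether a probe also reads such a copy was not tested.

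Promoters of such genes are known to carry sites for NRF1 and for the ETS factor GABP. Because the 4 genes of complex II showed the lowest median of any complex and NDUFB7 the largest change in Lamin B2 Kd, the sequence upstream of their start sites is shown, from RefSeq (GRCh38.p14), 5′ to 3′ up to the base before the start site and without any stretch that lies in another gene. Capitals mark matches on either strand to the NRF1 pattern or to CCGGAAG (ETS); in the lines shown no match to one overlapped a match to the other. SDHC and ATP5J2 had no entry.
SDHA, chr5:218154-218319, + strand: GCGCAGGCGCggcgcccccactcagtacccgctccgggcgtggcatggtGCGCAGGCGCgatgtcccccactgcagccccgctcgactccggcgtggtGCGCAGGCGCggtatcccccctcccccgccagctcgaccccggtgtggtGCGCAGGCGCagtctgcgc
SDHB, chr1:17054033-17054282, - strand: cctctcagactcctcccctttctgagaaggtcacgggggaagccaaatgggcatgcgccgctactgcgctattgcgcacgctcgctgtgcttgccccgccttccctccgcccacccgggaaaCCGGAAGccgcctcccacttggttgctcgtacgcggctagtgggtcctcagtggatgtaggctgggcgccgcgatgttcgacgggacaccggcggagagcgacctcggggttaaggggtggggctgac
SDHD, chr11:112086757-112086872, + strand: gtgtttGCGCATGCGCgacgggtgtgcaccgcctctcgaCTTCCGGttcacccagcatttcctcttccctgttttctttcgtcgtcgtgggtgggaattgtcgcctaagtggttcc
NDUFB7, chr19:14572067-14572316, - strand: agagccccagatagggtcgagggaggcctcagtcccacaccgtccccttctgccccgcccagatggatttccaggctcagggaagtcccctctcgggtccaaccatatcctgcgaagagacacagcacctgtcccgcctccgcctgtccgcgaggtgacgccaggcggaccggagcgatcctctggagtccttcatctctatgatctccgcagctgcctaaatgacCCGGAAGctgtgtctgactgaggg
The upstream stretch of SDHA held 4 matches to the NRF1 pattern and none to the ETS pattern, that of SDHB held 1 ETS match, that of SDHD held 1 of each, and that of NDUFB7 held 1 ETS match. For the shares that follow, all 250 bases upstream were read in every promoter, stretches inside other genes included. The NRF1 pattern was found in 14 of 71 member promoters in the table (19.7%) against 5.07% of all 35116, and the ETS pattern in 17 of 71 (23.9%) against 8.52%. A search for TGACGTCA (the cAMP response element) found 4 of 71 (5.63%) against 1.65%, and one for AAGATGGC (YY1) found 1 of 71 (1.41%) against 1.36%. These counts describe letters in a window and carry no test.

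In Lamin A/C Kd, 2 of the 82 genes fell and none rose, against 8.83% of all 21868 genes tested that were called in either direction 5.7% that fell and 3.14% that rose. Counted by probe, 4 of 124 passed, against 9.06%. With no adjustment 8 of the 82 had p under 0.05, beside 5059 of all 21868 genes tested. The 2 genes were ATP5J2, the f subunit in the membrane part of the ATP synthase, and SDHB, the iron-sulfur subunit of succinate dehydrogenase. By the rule of a fold of at least 2 with an unadjusted p under 0.05, 1 gene changed, ATP5J2, against 2.2% of all genes tested. For 79 of the 82 genes the 95% interval of the change lay inside 2-fold in both directions. The 3 exceptions were ATP5J2, SDHC and NDUFA10.

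ATP5J2 (now ATP5MF) lies on chromosome 7 and had 2 probes. On the brighter one the 3 controls read 7.62, 7.61 and 7.65 on the log2 scale, the 3 Lamin A/C Kd arrays 5.98, 6.08 and 6.33, and the 3 Lamin B2 Kd arrays 7.67, 7.47 and 7.14. All 3 Lamin A/C Kd arrays were below every other array, while the Lamin B2 Kd arrays overlapped the controls. The level in Lamin A/C Kd was 35.5% of the control level, a log2 change of -1.49 ± 0.16 (SE, n = 3; limma adjusted p = 0.00147). The other probe gave -1.59 ± 0.14 (limma adjusted p = 0.000796). In Lamin B2 Kd the same probes gave -0.20 and -0.22 (limma adjusted p = 0.436 and 0.355). The protein-coding genes on either side of ATP5J2 in RefSeq did not pass the test in Lamin A/C Kd, with log2 changes of -0.41 for CPSF4 (limma adjusted p = 0.0971) and 0.20 for ZNF789 (limma adjusted p = 0.338).

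**Figure D1:**
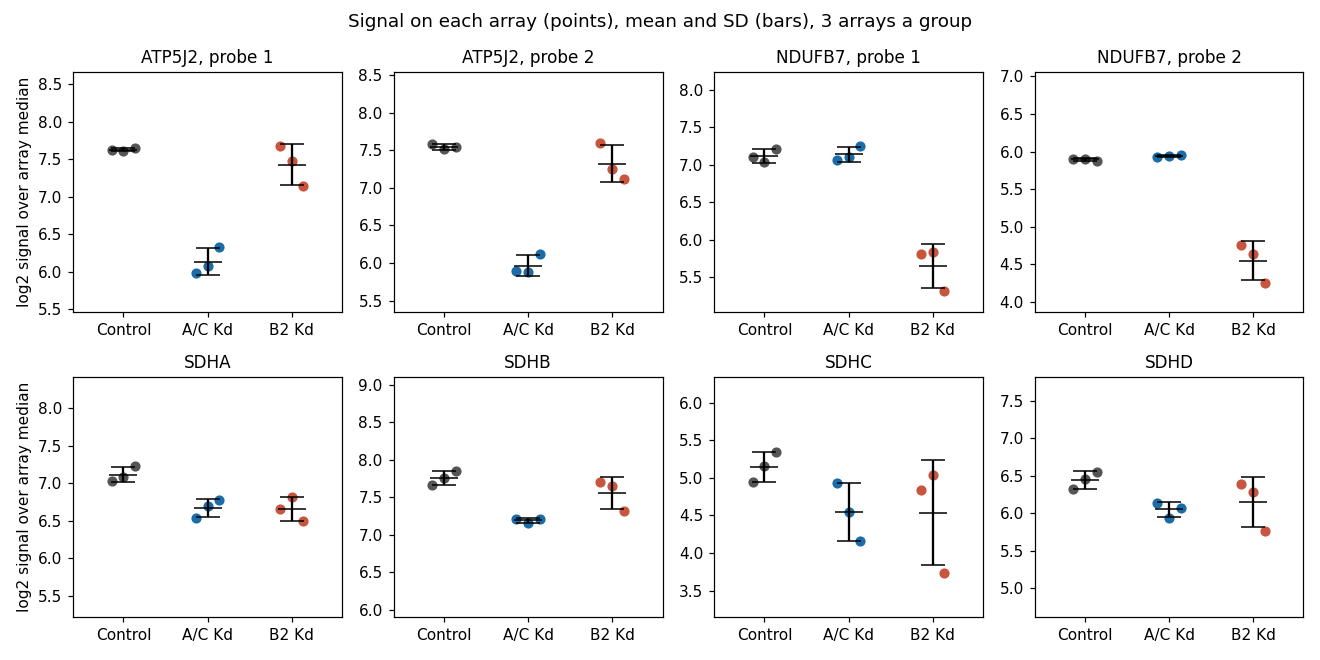
Each panel plots the log2 signal above the array median of 1 probe on the 9 arrays, by group, with points for arrays, a horizontal mark for the mean and bars for 1 SD over 3 arrays. The vertical axis spans the same range in every panel. Both ATP5J2 probes are low on the 3 Lamin A/C Kd arrays alone and both NDUFB7 probes on the 3 Lamin B2 Kd arrays alone, whereas the SDHA, SDHB, SDHC and SDHD probes lie lower on all 3 Lamin A/C Kd arrays than on any control by smaller amounts.

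The succinate dehydrogenase genes, which also serve the tricarboxylic acid cycle, were all lower in Lamin A/C Kd. SDHB read 7.66, 7.75 and 7.85 in the controls, 7.22, 7.15 and 7.20 in Lamin A/C Kd and 7.71, 7.65 and 7.31 in Lamin B2 Kd. Its Lamin A/C Kd arrays lay below all others, and the change was -0.56 ± 0.13 (SE, n = 3; limma adjusted p = 0.0307), or 67.8% of the control level. With any 1 of the 6 control and Lamin A/C Kd arrays left out SDHB no longer passed (limma adjusted p from 0.0796 to 0.129), while ATP5J2 did. Of the protein-coding genes beside SDHB, PADI2 gave 0.19 in Lamin A/C Kd (limma adjusted p = 0.458). On the other side ATP13A2 gave -0.58 on its brighter probe (limma adjusted p = 0.132). Its other probe gave -0.79 and passed (limma adjusted p = 0.0151). SDHA, the flavoprotein, read 7.03, 7.08 and 7.22 in the controls, 6.53, 6.69 and 6.78 in Lamin A/C Kd and 6.66, 6.81 and 6.50 in Lamin B2 Kd, so that neither knockdown overlapped the controls. Its changes of -0.44 and -0.46 did not pass the test (limma adjusted p = 0.0635 and 0.0820). Of the membrane anchors, SDHC read 4.95, 5.15 and 5.34 in the controls, 4.93, 4.55 and 4.16 in Lamin A/C Kd and 4.83, 5.04 and 3.74 in Lamin B2 Kd. The SDHC arrays scattered most, and its changes of -0.60 and -0.61 had limma adjusted p = 0.310 and 0.287. SDHD read 6.32, 6.46 and 6.55 in the controls, 6.14, 5.94 and 6.07 in Lamin A/C Kd and 6.39, 6.28 and 5.77 in Lamin B2 Kd, with changes of -0.39 and -0.30 (limma adjusted p = 0.196 and 0.310). All 8 probes of the 4 genes were lower on each Lamin A/C Kd array than on any control, and 3 of the 8 were so in Lamin B2 Kd. Among all genes tested, 25.2% were lower on each Lamin A/C Kd array than on any control, and 27.2% on each Lamin B2 Kd array. With quantile normalization 3 of the 4 genes stayed below every control on each Lamin A/C Kd array, beside 19.5% of all genes tested.

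By complex, the median log2 change in Lamin A/C Kd was -0.11 for complex I, -0.50 for complex II, -0.020 for complex III, -0.055 for complex IV and -0.15 for complex V, and -0.039 over all genes tested. Over the 82 genes it was -0.11, with 63 changes below 0 and 19 above. Over all genes tested 12141 of 21868 changes were below 0. Of the 82 genes 36 lay below every control on all 3 Lamin A/C Kd arrays and 4 lay above, beside 25.2% and 15.6% of all genes tested. These values depended on the scaling. With quantile normalization the median over the 82 genes was 0.021, beside 0.024 over all genes tested. In that scaling 8 genes lay below every control and 18 above, beside 19.5% and 22.9% of all genes tested. The complexes then gave 0.038, -0.34, 0.10, 0.037 and -0.031 in order. The direction for complexes I, III and IV therefore turned with the scaling, and that for complexes II and V did not.

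**Figure D2:**
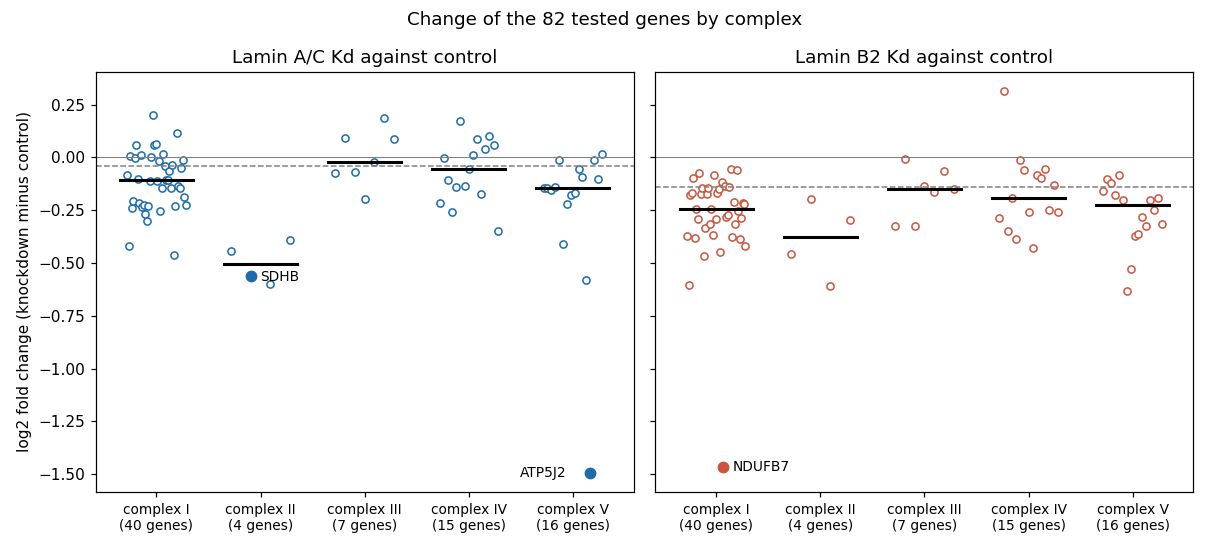
Each point is the log2 fold change of 1 gene on its brightest tested probe, in columns by complex, with Lamin A/C Kd on the left and Lamin B2 Kd on the right. Filled, named points passed the limma test; black bars are the medians by complex, the dashed line is the median over all genes tested (-0.039 and -0.14) and the solid line is 0. Complex II is lowest in Lamin A/C Kd with a median of -0.50, ATP5J2 at -1.49 and NDUFB7 at -1.46 stand apart, and no gene passed above 0.

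Outside complex II the next largest changes in Lamin A/C Kd did not pass the test. ATP5J, coupling factor 6 of the stator stalk, read 8.70, 8.65 and 8.67 in the controls and 8.16, 8.02 and 8.09 in Lamin A/C Kd, a change of -0.58 ± 0.17 (SE, n = 3; limma adjusted p = 0.0690). ATP5F1, the b subunit of that stalk, gave -0.41 (limma adjusted p = 0.0641). In complex I, the core subunit NDUFS3 gave -0.46 (limma adjusted p = 0.0685) and the accessory subunit NDUFA10 gave -0.42 (limma adjusted p = 0.435). ATP5J, ATP5F1 and NDUFS3 had all 3 Lamin A/C Kd arrays below all 3 controls, as NDUFA10 did. All 9 arrays share the estimate of spread in these tests and in the SE. Without Lamin B2 Kd replicate 3, 8 genes fell in Lamin A/C Kd, namely ATP5J2, SDHB, SDHA, SDHD, ATP5J, ATP5F1, NDUFS3 and NDUFA9, with the same changes and limma adjusted p from 0.000379 to 0.0494. In that setting the called genes of the other respiration lists, given below, went from 11 to 31. The share of all genes called in it was not counted.

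The 7 core subunits of complex I, which carry the electron transfer from NADH to ubiquinone, had a median change of -0.15 in Lamin A/C Kd, with all 7 below 0, and of -0.22 in Lamin B2 Kd, again with all 7 below 0. None passed the test. The 31 accessory subunits had medians of -0.11 and -0.24, and 1 passed, NDUFB7 in Lamin B2 Kd. In complex III the changes ran from -0.19 for UQCRC2, a core protein, to 0.19 for UQCRH, the hinge protein, in Lamin A/C Kd, and from -0.33 for UQCR to -0.0077 for UQCRB in Lamin B2 Kd. In complex IV they ran from -0.35 to 0.17 in Lamin A/C Kd and from -0.43 to 0.31 in Lamin B2 Kd, where COX4I2, an isoform known from lung, gave the only change above 0 among the 82 genes. Of the 7 tissue isoforms or paralogues named by the rule, 3 were measured, namely COX4I2, COX6A2 and COX6B2, each well above background on all 9 arrays on its brightest probe. COX6A2, the isoform known from heart and skeletal muscle, read 7.72, 7.47 and 7.54 in the controls, 7.27, 7.73 and 7.33 in Lamin A/C Kd and 7.92, 7.20 and 7.42 in Lamin B2 Kd, and the groups overlapped. The brightest member probes were those of NDUFA8, SDHB, UQCRQ, COX6A1 and ATP5G3 in complexes I to V. For NDUFA8 the changes were -0.27 and -0.34, for UQCRQ 0.086 and -0.15, for COX6A1 0.17 and -0.011, and for ATP5G3, which encodes the c subunit of the rotor, -0.17 and -0.37, with Lamin A/C Kd given first. None of these 8 values passed the test.

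In Lamin B2 Kd, 1 of the 82 genes fell and none rose, against 4.33% of all 22123 genes tested that were called in either direction 3.88% that fell and 0.447% that rose. Counted by probe, 2 of 124 passed, against 4.07%. With no adjustment 15 of the 82 had p under 0.05, beside 5391 of all 22123 genes tested. The gene was NDUFB7, an accessory subunit of the membrane arm of complex I. By the 2-fold rule it was also the 1 gene to change, against 2.03% of all genes tested. For 78 of the 82 genes the 95% interval of the change lay inside 2-fold, and the 4 exceptions were NDUFB7, SDHC, NDUFA10 and ATP5G1.

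NDUFB7 lies on chromosome 19 and had 2 probes. On the brighter one the controls read 7.11, 7.03 and 7.21, the Lamin A/C Kd arrays 7.06, 7.10 and 7.25, and the Lamin B2 Kd arrays 5.81, 5.84 and 5.31. All 3 Lamin B2 Kd arrays were below the 6 others, and the array on the second slide was the lowest. The level was 36.2% of the control level, a log2 change of -1.46 ± 0.16 (SE, n = 3; limma adjusted p = 0.00717). The other probe gave -1.35 ± 0.14 (limma adjusted p = 0.00632). In Lamin A/C Kd the 2 probes gave 0.018 and 0.047 (limma adjusted p = 0.968 and 0.895). Without the array on the second slide the change was -1.29 (limma adjusted p = 0.00312). With only the 2 groups in the fit it was no longer called (limma adjusted p = 0.0571). Of the 2 protein-coding neighbours on each side in RefSeq, TECR (named GPSN2 on the array) gave -0.35 (limma adjusted p = 0.205) and DNAJB1 gave -0.41 (limma adjusted p = 0.147), and CLEC17A and ADGRE3 were not tested. The 11 tested genes of complexes I to V on chromosome 19 had a median change of -0.33 in Lamin B2 Kd, NDUFB7 included, against -0.18 for the other genes tested on that chromosome and -0.21 for the 71 genes of the complexes elsewhere. In Lamin A/C Kd those medians were -0.055, -0.025 and -0.13.

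The next largest changes in Lamin B2 Kd were those of ATP5G1 and ATP5G2, both encoding the c subunit of the rotor, at -0.63 and -0.53 (limma adjusted p = 0.151 and 0.129). ATP5G1 read 7.50, 7.49 and 7.41 in the controls and 7.34, 6.88 and 6.27 in Lamin B2 Kd, with the lowest value again on the second slide. SDHC and NDUFA10 gave -0.61 and -0.60 (limma adjusted p = 0.287 and 0.245), the accessory subunits NDUFA7 and NDUFB5 -0.47 and -0.45 (limma adjusted p = 0.0899 and 0.150), and SDHA -0.46 (limma adjusted p = 0.0820).

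**Figure D3:**
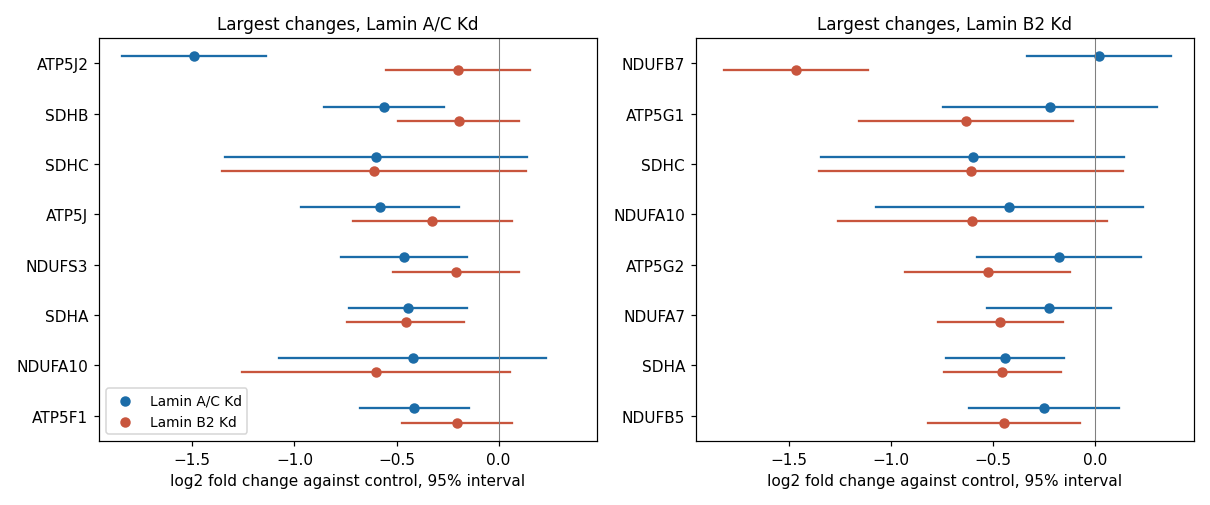
The 8 genes with the largest changes on depletion of Lamin A/C (left) and of Lamin B2 (right), with the log2 fold change against the shared controls in each knockdown as points and its 95% interval as lines. ATP5J2 at -1.49 in Lamin A/C Kd and NDUFB7 at -1.46 in Lamin B2 Kd lie away from 0, and their values in the other knockdown, -0.20 and 0.018, have intervals that include 0.

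Of the 82 changes in Lamin B2 Kd 81 were below 0, beside 14748 of 22123 over all genes tested. The median log2 change over the 82 genes was -0.23, beside -0.14 over all genes tested. By complex it was -0.24, -0.38, -0.15, -0.19 and -0.23 for complexes I to V. This shift differed between the 3 arrays. Relative to the control mean, the median gene of the 82 stood at 0.0065 on replicate 1, -0.22 on replicate 2 and -0.49 on replicate 3, the array on the second slide. Over all genes tested the same arrays stood at -0.065, -0.084 and -0.32. For the 82 genes the Lamin A/C Kd arrays stood at -0.12, -0.16 and -0.064. Without the array on the second slide the median over the 82 genes was -0.11, beside -0.065 over all genes tested, and the complexes gave -0.11, -0.16, -0.12, -0.10 and -0.11. With quantile normalization and all arrays it was -0.011, beside 0.0027 over all genes tested, and complex II gave -0.15. Complex III then gave 0.037, so its direction turned with the scaling. The median shift of -0.23 was no larger than the spread between the 3 Lamin B2 Kd arrays (SD 0.25). Of the 82 genes 25 lay below every control on all 3 Lamin B2 Kd arrays and 1 above, beside 27.2% and 5.63% of all genes tested.

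**Figure D4:**
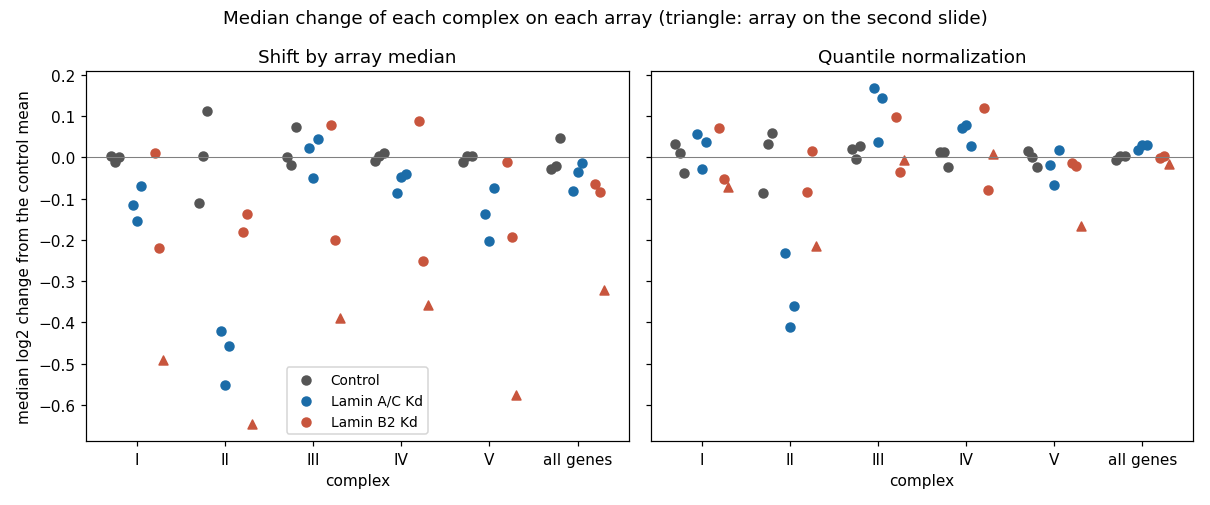
Median log2 change from the control mean over the genes of each complex, and over all genes tested, on each of the 9 arrays, after the shift by the array median (left) and after quantile normalization (right). The triangle is Lamin B2 Kd replicate 3, on the second slide. On the left that array is lowest in every complex, at -0.49 over the 82 genes, and on the right the lowest points are those of complex II on the 3 Lamin A/C Kd arrays, from -0.41 to -0.23.

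Between the knockdowns, 3 of the 82 genes differed, against 15.6% of all 21852 genes tested, with 2 higher in Lamin A/C Kd (11.1% of all genes) and 1 lower (4.48%). By the 2-fold rule 2 differed, against 4.2%. By probe 7 of 124 differed, against 15.5%. On all 3 Lamin A/C Kd arrays 6 genes lay above every Lamin B2 Kd array and 3 below, beside 21.9% and 10.4% of all genes. NDUFB7 was higher in Lamin A/C Kd than in Lamin B2 Kd by 1.48 ± 0.16 on the log2 scale (SE, n = 3; limma adjusted p = 0.000757) and ATP5J2 was lower by 1.29 ± 0.16, a difference of -1.29 (limma adjusted p = 0.00135). NDUFB10, another accessory subunit of the complex I membrane arm, was higher by 0.57 ± 0.16 (limma adjusted p = 0.0423), a call kept under 11 of 22 alternative settings and lost with any 1 control or Lamin A/C Kd array left out and without Lamin B2 Kd replicate 2. It read 8.31, 8.41 and 8.38 in the controls and 8.51, 8.63 and 8.56 in Lamin A/C Kd. In Lamin B2 Kd it read 8.24, 8.13 and 7.63, so the 3 groups did not overlap. Its change against control passed in neither knockdown here, but its rise in Lamin A/C Kd passed with quantile normalization and with cyclic loess. SDHB, COX4NB and NDUFB2 followed by size of p, with differences of -0.37, 0.24 and 0.35 that did not pass (limma adjusted p = 0.0946, 0.172 and 0.173). No gene had probes that passed in opposite directions within a comparison. The dimmer of 2 probes of COX7B rose in Lamin A/C Kd by 0.79 (limma adjusted p = 0.0143), while its brighter probe gave 0.10 (limma adjusted p = 0.783), so the 2 probes of this complex IV subunit did not agree on a change.

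Among the other genes of respiration, the 6 mitochondrially encoded subunits on the array gave 1 call in Lamin A/C Kd, beside 8.83% of all genes tested. ND6, the complex I subunit encoded on the light strand, read 4.30, 4.22 and 4.43 in the controls, 3.44, 3.62 and 3.23 in Lamin A/C Kd and 3.82, 4.01 and 3.91 in Lamin B2 Kd. It fell by 0.88 in Lamin A/C Kd (limma adjusted p = 0.00638), and the value in Lamin B2 Kd was -0.40 (limma adjusted p = 0.119). The other mitochondrial genes in Lamin A/C Kd ran from -0.27 for ND1 to 0.32 for ND3, none past the test, and the list had medians of 0.12 for Lamin A/C and -0.25 for Lamin B2. ND3 was higher in Lamin A/C Kd than in Lamin B2 Kd by 0.62 (limma adjusted p = 0.0287) and ND6 lower, at -0.48 (limma adjusted p = 0.0389). Of all genes tested, 15.6% differed between the knockdowns. The ND3 call was kept under 12 of 22 alternatives and the ND6 call under 10 of 22. The dimmer ND3 probe gave 0.50 and did not pass (limma adjusted p = 0.0979).

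Of 17 genes for cytochrome c, ubiquinone synthesis and other electron carriers, 3 fell on depletion of Lamin A/C and 2 on that of Lamin B2, beside 5.7% and 3.88% of all genes tested, with medians of -0.22 and -0.30. COQ7 and COQ3, enzymes of ubiquinone synthesis, fell by 0.71 and 0.58 in Lamin A/C Kd (limma adjusted p = 0.0229 and 0.0216), and DHODH and COQ5 fell by 0.65 and 0.48 in Lamin B2 Kd (limma adjusted p = 0.0439 and 0.0469). The COQ7 call was kept under 13 of 22 alternatives and the COQ3 call under 14 of 22. COQ7 was lost with any 1 control or Lamin A/C Kd array left out. The DHODH call was kept under 11 of 22 alternatives and the COQ5 call under 5 of 22. COQ5 was lost under the 75th percentile, quantile and cyclic loess scalings. DHODH and COQ5 were both lost with any 1 control or Lamin A/C Kd array left out, and COQ5 also without Lamin B2 Kd replicate 1 or 2. Between the knockdowns 3 genes of the list were higher in Lamin A/C Kd and 2 lower, beside 11.1% and 4.48% of all genes tested. PDSS2 and COQ5, also of ubiquinone synthesis, were higher by 0.75 and 0.60 (limma adjusted p = 0.0168 and 0.00777), while COQ7 and COQ3 were lower, at -0.52 and -0.45 (limma adjusted p = 0.0491 and 0.0379). Of 37 genes listed as assembly factors, 1 rose and 3 fell in Lamin A/C Kd, beside 3.14% and 5.7% of all genes tested, with a median of -0.076. In Lamin B2 Kd 2 fell, beside 3.88%, with a median of -0.29. SCO1, a copper chaperone of complex IV, fell by 0.68 and COX19 rose by 0.68 in Lamin A/C Kd (limma adjusted p = 0.0120 and 0.0325). The SCO1 call was kept under 18 of 22 alternatives and the COX19 call under 12 of 22. COX19 was lost with the mean over its probes, among other settings. C20orf44 (now UQCC1, a complex III factor) fell by 0.94 and ECSIT, a complex I factor, fell by 0.71 in Lamin B2 Kd (limma adjusted p = 0.0140 and 0.0248), and C20orf44 also fell on depletion of Lamin A/C, at -0.59 (limma adjusted p = 0.0324). Between the knockdowns 7 genes of this list were higher in Lamin A/C Kd and none lower, beside 11.1% and 4.48% of all genes tested. The largest were COX19 at 1.08 and PET112L (now GATB) at 0.90 (limma adjusted p = 0.00324 and 0.0234). PET112L was counted by its place in the list, and a role in assembly was not examined.

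The counts that follow stand beside 5.7% of all genes tested that fell on depletion of Lamin A/C and 3.88% on that of Lamin B2, and with lists of this size 1 call is close to those shares. Of 17 tested regulators of mitochondrial gene expression, 1 fell in Lamin A/C Kd, ESRRA, a nuclear receptor that acts on respiratory genes, at -0.95 (limma adjusted p = 0.0213), and none passed in Lamin B2 Kd, with medians of -0.021 and -0.18. MYC was higher in Lamin A/C Kd than in Lamin B2 Kd by 0.53 (limma adjusted p = 0.0488), a call kept under 6 of 22 alternatives and lost with any 1 control or Lamin A/C Kd array left out, without Lamin B2 Kd replicate 2 or 3 and with the mean over its probes (0.20). Of 19 tricarboxylic acid cycle enzymes, 1 fell in each knockdown, IDH3A at -0.96 in Lamin A/C Kd (limma adjusted p = 0.00477) and IDH2 at -1.30 in Lamin B2 Kd (limma adjusted p = 0.0205), with medians of -0.14 and -0.24. Between the knockdowns IDH2 differed by 1.44 and IDH3A by -0.48 (limma adjusted p = 0.00345 and 0.0404). There the IDH2 call was kept under 22 of 22 alternatives. The IDH3A call was kept under 10 of 22 and lost with the mean over its probes. Against control the IDH2 call in Lamin B2 Kd was kept under 15 of 22. In Lamin A/C Kd the IDH3A call was kept under 22 of 22 and the ESRRA call under 15 of 22. Of 17 glycolytic enzymes, 1 fell in both, PFKL, the liver-type phosphofructokinase, at -0.79 and -1.05 (limma adjusted p = 0.0182 and 0.0152), with medians of -0.15 and -0.18. The comparisons with the control share the same 3 control arrays. Over these 6 lists 11 genes passed on depletion of Lamin A/C and 6 on that of Lamin B2. With 1 control or Lamin A/C Kd array left out, 2 to 5 passed in Lamin A/C Kd, and without Lamin B2 Kd replicate 3, 31 did. With any 1 control array left out, 0 passed in Lamin B2 Kd by limma.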

How the data were processed

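Single-colour array signals of 9 DLD1 samples were analysed, 3 for the untreated cells and 3 for each knockdown; the study's methods call them independent biological replicates. Per the labels and file headers, the authors labelled amplified RNA with Cy3 and extracted spot intensity with Agilent Feature Extraction (version 10.5 in the labels, 10.7.3.1 in the headers), giving background-subtracted and detrended processed signals. A second deposited file holds log2 values after a 50th percentile shift, centred by row on the median; it was used as an alternative, and its Lamin B2 Kd columns were matched by group only. Genome build and probe annotation release were not given in the sources used here.

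Here log2 processed intensity minus the 50th percentile of the array was averaged over the non-outlier spots of a probe, leaving out control spots. Probes entered a test if flagged well above background throughout 1 of the groups compared (3 of 3 arrays). limma 3.58.1 in R 4.3.3 was fitted to all 9 arrays, with Benjamini-Hochberg adjustment over 33131, 33535 and 33134 probes. Intervals are 95%. Precision is limited by the number of arrays. The script was tested on simulated data. Named genes were those that passed with groups apart and the next largest changes (8 per knockdown), the brightest of each complex, the 6 smallest p between knockdowns, and the 2 largest passing changes of each other list. The members and lists were chosen with earlier results of these data known. All 86 gene names were matched by accession to RefSeq, GRCh38.p14. Alternatives were other normalizations, background correction, filters, blocks, weights, probe rules and each array left out. One marker gene is not reported here.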

Additional observations from a re-analysis of the deposited data

Results flagged for a closer look

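The difference between the 2 knockdowns passed the limma test on 7 of 124 probes of complexes I to V, against 15.5% of all 33134 probes tested. The 7 probes, of 5 genes, were singled out because they passed. For ATP5J2 the Lamin A/C Kd value minus the Lamin B2 Kd value was -1.29 on the brighter probe and -1.36 on the other. For NDUFB7 it was 1.48 and 1.39. For NDUFB10 it was 0.57. For the dimmer probes of COX7B and UQCR it was 0.67 and 0.57, and their brighter probes gave 0.35 and 0.25 and did not pass. Groups of 3 arrays were not searched for single outlying arrays.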

How the results depend on the processing

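With other settings, the genes of complexes I to V called in Lamin A/C Kd against control, 2 as reported, numbered 6 with a shift by the 75th percentile, 6 with cyclic loess, 5 with quantile normalization, 9 with normexp background correction, 1 with no filter on detection, 7 with only the 2 groups compared, 10 with array weights, 8 with the slide as a block, 4 with every probe counted, 1 by the 2-fold rule and 1 in the deposited table. With quantile normalization and without Lamin B2 Kd replicate 3, an alternative chosen after seeing the data, they numbered 6. Among these calls NDUFB10 rose with quantile normalization, with cyclic loess and in that alternative (limma adjusted p = 0.0461, 0.0432 and 0.0131). A COX7B probe rose with every probe counted, and the other calls in these settings fell. In Lamin B2 Kd the count, 1 as reported, was 9 with normexp, 0 with only the 2 groups compared and 2 with every probe counted. Between the knockdowns the count, 3 as reported, was 7 with the 75th percentile, 6 with cyclic loess, 5 with quantile normalization, 5 with normexp, 6 with the slide as a block, 7 with every probe counted and 6 in the added alternative. Apart from the 2-fold rule and the count by probe, the share of all genes called was not counted under the alternatives, also those with an array left out. The median in Lamin A/C Kd, -0.11, became -0.035 with the 75th percentile, 0.012 with cyclic loess, -0.20 with normexp and 0.021 with quantile normalization, with or without Lamin B2 Kd replicate 3.

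For Lamin A/C Kd the other lists, with 11 called genes as reported, held 19 with the 75th percentile, 39 with array weights, 23 with cyclic loess, 3 in the deposited table, 3 with no filter, 30 with normexp, 28 with only the 2 groups compared, 19 with quantile normalization, 31 in the added alternative and 31 with the slide as a block. For Lamin B2 Kd, with 6 as reported, they held 1 in the deposited table, 2 with no filter, 20 with normexp and 0 with only the 2 groups compared. The causes were not tested.

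Leaving out 1 array at a time gave 1 to 8 genes of the complexes called in Lamin A/C Kd (1 without any 1 control or Lamin A/C Kd array, 8 without Lamin B2 Kd replicate 3), 1 in Lamin B2 Kd throughout and 2 to 8 between the knockdowns (8 without Lamin B2 Kd replicate 1). The medians ran from -0.13 to -0.099 for Lamin A/C and from -0.36 to -0.11 for Lamin B2. The other lists held 2 to 31 and 0 to 6 called genes.

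Whether the same replicate number marks a shared source could not be settled. Over 9 same-number pairs the correlation of deviations from the group mean ran from -0.050 to 0.092. Pairs of different number ran from -0.099 to 0.095, and each group mean rests on only 3 arrays. In the deposited table the set numbers of the Lamin B2 Kd columns did not follow the sample titles. With the replicate number as a block, 1 gene of complexes I to V was called in Lamin A/C Kd (ATP5J2, adjusted p = 0.00988; SDHB had 0.0832) and 1 in Lamin B2 Kd, and the other lists held 5 and 0. ATP5J2 in Lamin A/C Kd passed in 22 of 22 alternatives, NDUFB7 in Lamin B2 Kd in 21 of 22, SDHB in Lamin A/C Kd in 13 of 22 and NDUFB10 between the knockdowns in 11 of 22, and no direction of these turned. Array number and the single array on the second slide limit the precision.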
